A study of Mus musculus with 12 samples.

Results

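The genes described here are those encoded by the mitochondrial genome, taken as every row of the count table whose symbol starts with mt-. They number 37 of 47729 rows and comprise 13 mRNAs, 2 rRNAs and 22 tRNAs. They were followed in 12 RNA-seq libraries from mouse heart, 3 in each of 4 groups of male C57BL/6 mice aged 8 weeks. The Control group was taken to be the mice infused with saline, although their sample titles also read Ang II control. The other 3 groups were infused with angiotensin II (Ang II), a pressor peptide that also promotes scarring of the heart, from pumps under the skin for 28 days. In the last 2 weeks they were given vehicle, EHP-101 by mouth at 20 mg/kg, or losartan at 0.6 g/L in the drinking water. Losartan is a blocker of the AT1 receptor, through which Ang II acts, and EHP-101 is an oral preparation of a compound derived from cannabidiol. RNA was selected by its poly(A) tail, read single-end at 50 bases and prepared with a kit that does not mark strand. The labels do not say that the 3 samples of a group came from separate animals, so the p-values speak only of the spread among the libraries at hand, part or all of which may be technical.

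Mitochondrial DNA is a small circle that is transcribed from both strands as long RNAs spanning many genes. Most mRNAs and both rRNAs are flanked by tRNAs, and cutting the tRNAs out releases them. Most mature mRNAs then receive a short poly(A) tail inside the mitochondrion. All 13 proteins are subunits of oxidative phosphorylation (OXPHOS), the chain that makes most of the ATP of the beating heart, and each is assembled with subunits encoded in the nucleus.

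Total counts were 22155418 to 24040516 per library. Of all rows, 15336 passed the filter on low counts and were tested, among them 26 of the 37 mitochondrial genes: all 13 mRNAs, both rRNAs and 11 tRNAs. All 12 cardiomyocyte markers examined were present, at a summed level of 61900 to 87500 CPM (counts in 1000000 of the library, scaled by TMM). Control replicate 2 stood apart from the other 11 libraries. Its TMM factor was 0.839. Relative to the mean of all libraries, the median log2 ratio in this library was 0.425 for the 25% shortest genes and -0.421 for the 25% longest. Control replicates 1 and 3 departed the opposite way, with -0.174 and -0.261 for the shortest and 0.148 and 0.26 for the longest genes, while the 9 libraries from infused mice lay between -0.073 and 0.089. The comparison with Control is therefore also given without Control replicate 2, which leaves 2 Control libraries with the opposite length pattern.

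A stretch of the mitochondrial genome has a near-perfect copy on a nuclear chromosome, and the copy bears on which mRNAs these counts can describe. In the mouse build GRCm38, chr1:24611535-24616197 holds 7 annotated pseudogenes on the minus strand that match chrM:6390-11042 in the same order, 5 of them with 1 constant offset. Across the matched genes only 2 bases differed. They are A1066T between mt-Co1 and Gm29216 and T3C between mt-Nd3 and Gm28438, with the mitochondrial base first and positions counted from the 5′ end of the mitochondrial gene. The sequences around these differences are shown 5′ to 3′ because they are the only places where the aligned copies depart from the mitochondrial genes, and capitals mark the differing base. They lie at chrM:6390-6417 and chrM:9459-9485 on the plus strand and at chr1:24616161-24616188 and chr1:24613093-24613119 on the minus strand.
mt-Co1: ggaAttgttttatccaactcatcccttg
Gm29216: ggaTttgttttatccaactcatcccttg
mt-Nd3: atTaacctgtacactgttatcttcatt
Gm28438: atCaacctgtacactgttatcttcatt

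The coding sequences show how tightly this genome is packed and where the poly(A) tail is needed. Of the 13 mRNAs, 10 ended in a complete stop codon and 3 in an incomplete one, whose missing bases are known to be supplied by the poly(A) tail. The last 30 bases of these 3 are shown with the lone T of the unfinished codon in capitals, at chrM:15259-15288, chrM:11515-11544 and chrM:9361-9390 on the plus strand.
mt-Cytb: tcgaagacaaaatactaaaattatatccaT
mt-Nd4: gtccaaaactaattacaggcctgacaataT
mt-Co3: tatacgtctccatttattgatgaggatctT

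mt-Nd5 and mt-Nd6 are read from opposite strands and their 3′ ends share 14 bases, given in capitals below for mt-Nd5 at chrM:13536-13565 on the plus strand and mt-Nd6 at chrM:13552-13581 on the minus strand. The strand was not recorded, so reads from the RNA opposite mt-Nd6 cannot be told apart from reads of mt-Nd6 itself. mt-Atp8 and mt-Atp6 share 43 bases of the same strand, at chrM:7927-7969.
mt-Nd5: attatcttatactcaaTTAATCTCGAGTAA
mt-Nd6: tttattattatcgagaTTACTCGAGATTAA
mt-Atp8 and mt-Atp6: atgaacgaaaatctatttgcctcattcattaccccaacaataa

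Counts divided the mRNAs into 2 sets. The first 7, mt-Nd1, mt-Nd2, mt-Nd4, mt-Nd5 and mt-Nd6 of complex I, mt-Cytb of complex III and mt-Co1 of complex IV, had 159258 to 1412239 counts in each library. These 7 held 95.5 to 97.3% of all mitochondrial counts. The other 6, mt-Co2, mt-Co3, mt-Atp6, mt-Atp8, mt-Nd3 and mt-Nd4l, had 65 to 2018 counts. All 6 lie inside the stretch that is copied on chromosome 1, and mt-Co1 and mt-Nd4 lie partly inside it. Per base of gene, the mean count was 934 for mt-Cytb, 790.1 for mt-Nd1, 668.5 for mt-Co1 and 544 for mt-Nd2. It was 415 for mt-Nd6, 352.5 for mt-Nd4 and 347 for mt-Nd5. The 6 thinly counted mRNAs had between 0.364 (mt-Nd4l) and 2.09 (mt-Co2) counts per base.

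The identity with nuclear transcripts was measured in windows of 50 bases, the length of a read. Every window of mt-Co2 was also found in an annotated nuclear transcript, as were 99.86% of those of mt-Co3, 99.53% of mt-Atp6, 98.79% of mt-Nd4l and 97.99% of mt-Nd3. mt-Atp8 had 0%, and the annotated copies cover only its last 43 bases. Among the densely counted mRNAs the share was 62.23% for mt-Nd4, 51.14% for mt-Co1, 8.19% for mt-Nd2 and 7.606% for mt-Nd5, and no window of mt-Nd1, mt-Nd6 or mt-Cytb was found. Counted per window that is not shared, the mean was 1413 for mt-Co1, 976 for mt-Cytb, 968 for mt-Nd4 and 833 for mt-Nd1. It was 622 for mt-Nd2, 458.5 for mt-Nd6 and 386 for mt-Nd5, so the order of mt-Co1 and mt-Cytb, and the place of mt-Nd4, depended on which bases were taken as countable. How reads that fit more than 1 place were handled is not given in the sources used here. The levels of the 6 thinly counted mRNAs are therefore not compared with those of the others, and their differences between groups rest on few reads.

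**Figure D1:**
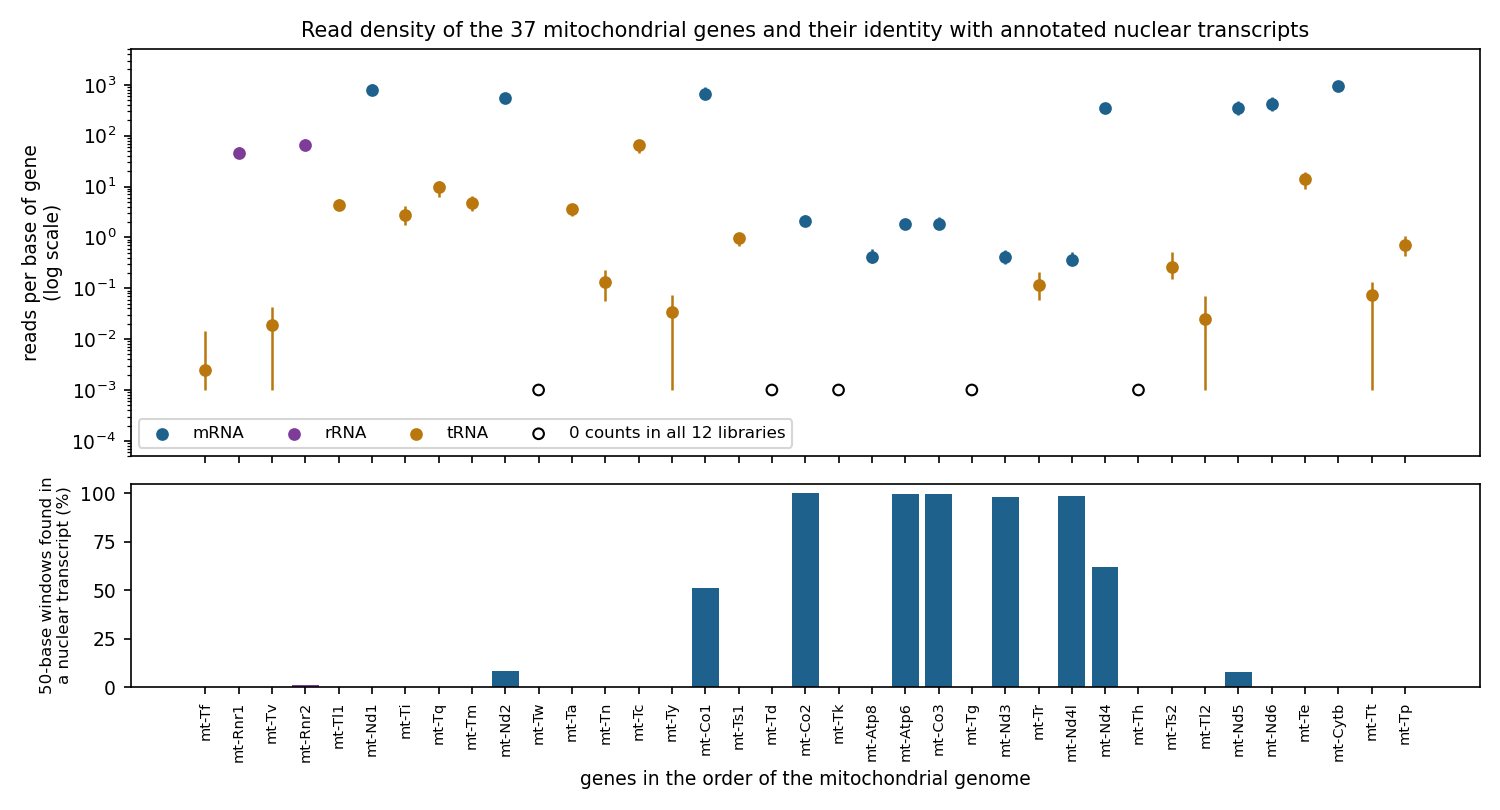
The upper plot gives reads per base of gene on a log scale for the 37 mitochondrial genes in genome order, with points at the mean of 12 libraries, lines from the lowest to the highest library (drawn down to 0.001 where the lowest was 0) and open circles at 0.001 for the 5 tRNAs with 0 counts in every library. The lower plot gives the percent of 50-base windows found in an annotated nuclear transcript. The mRNAs from mt-Co2 to mt-Nd4l lie between 0.364 and 2.09 reads per base, and every other mRNA lies at 347 or above.

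Mitochondrial genes took a mean of 21.1 ± 2.31% of all counts (SD, n = 12), and no difference in that share passed a test. Exact permutation tests of 3 against 3 libraries could not pass 0.05, since the smallest p they can give is 0.1. The share was 19.68, 24.65 and 20.45% in the 3 Control libraries, and 19.46, 20.01 and 17.74% under Ang II. It was 18.95, 22.65 and 22.79% with EHP-101, and 25.41, 21.07 and 20.79% with losartan. Only the Ang II and losartan groups did not overlap, and the highest libraries were losartan replicate 1 and Control replicate 2. Group means were 21.6 ± 2.68% (SD, n = 3) in Control, 19.1 ± 1.19% under Ang II, 21.5 ± 2.18% with EHP-101 and 22.4 ± 2.59% with losartan. The 95% Wilson interval of a single library reached at most 0.0180 points to either side, so the spread was between libraries and not from counting. Such intervals cover counting error only.

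The share under Ang II was 2.53 points below Control (two-sided exact permutation test, p = 0.2). That difference was -0.997 points once Control replicate 2 was left out. The share with EHP-101 was 2.39 points above Ang II (exact p = 0.3) and that with losartan was 3.35 points above it (exact p = 0.1, the smallest that 3 against 3 libraries can give). Both treatments are set against the same 3 Ang II libraries. An exact test of any difference among the 4 groups, over 369600 arrangements, gave p = 0.352. All 9 libraries from infused mice against the 3 Control libraries differed by -0.613 points (exact permutation p = 0.714), and without Control replicate 2 this turned to 0.916 points (p = 0.618). Adjusted over these 5 tests by Benjamini-Hochberg, the lowest p was 0.44. In bulk tissue, fewer cells of a type and less RNA per cell cannot be told apart, and the share also moves with every nuclear transcript in the denominator.

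**Figure D2:**
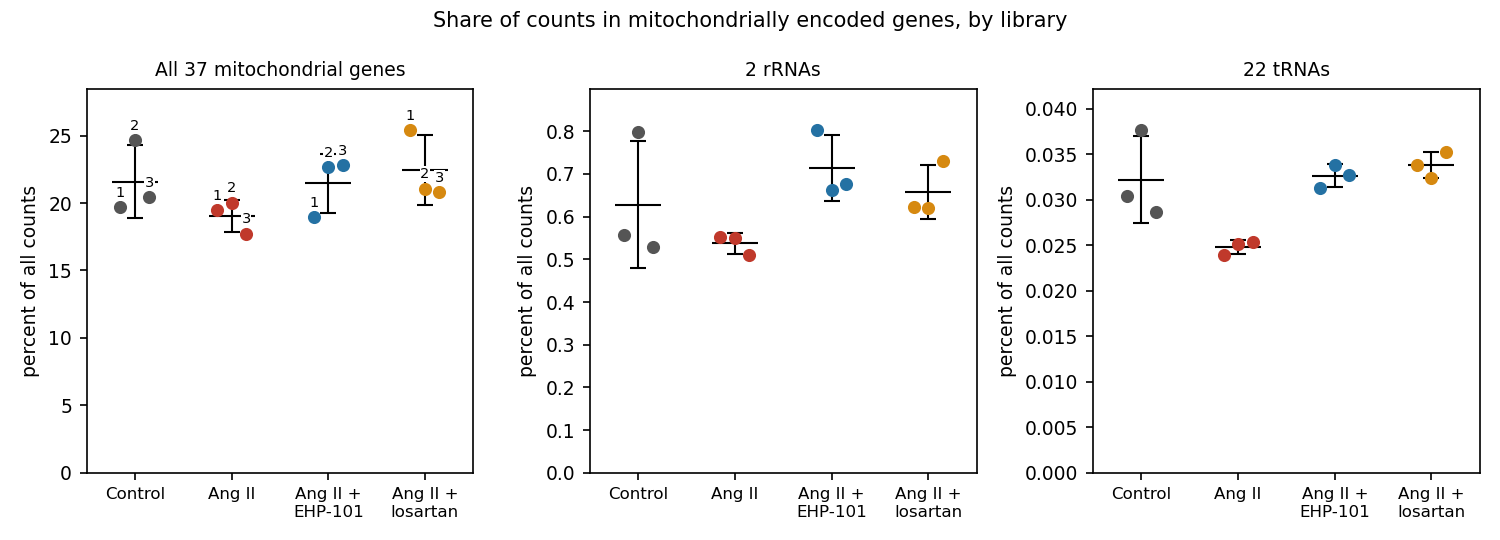
Percent of all counts in the 37 mitochondrial genes (left, numbers are replicates), the 2 rRNAs (middle) and the 22 tRNAs (right), with 1 point per library and the group mean ± SD as bars (n = 3). The total share overlaps between groups except for Ang II and losartan, and the tRNA share of the 3 Ang II libraries (0.0240 to 0.0254%) lies below all 9 others.

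The make-up of the mitochondrial mRNA pool was much alike across libraries. As a share of the counts in the 13 mRNAs, which no scaling of libraries can change, the mean of 12 libraries was 22.4% for mt-Cytb and 21.7% for mt-Co1. It was 15.9% for mt-Nd1, 13.3% for mt-Nd5, 11.9% for mt-Nd2, 10.2% for mt-Nd4 and 4.52% for mt-Nd6. mt-Cytb, the only mitochondrially encoded subunit of complex III, lay between 21.6 and 23.2% in every library. These shares sum to 100, so a rise in 1 lowers the others, and they were given no test.

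mt-Nd5 and mt-Co1 departed most from this pattern. mt-Nd5, a proton-pumping subunit of complex I, took 12.7, 8.70 and 13.6% of the mRNA counts in Control and 13.2, 12.7 and 13.2% under Ang II. It took 14.3, 14.8 and 13.2% with EHP-101 and 15.7, 13.8 and 13.9% with losartan. Every treated library was above every Ang II library, by a narrow margin for EHP-101 replicate 3 (13.24 against 13.19%), and Control replicate 2 was below all others. mt-Co1, the catalytic subunit of cytochrome c oxidase, took 23.1, 26.8 and 20.9% in Control and 20.2 to 21.8% in the 9 other libraries. The high value again belonged to Control replicate 2, and without that library the Control range still overlapped the rest. mt-Nd6, the only mRNA encoded on the minus strand, took 3.02% in Control replicate 2 and 4.08 to 5.29% elsewhere. In the same library mt-Nd1 took 18.9%, against 14.6 to 16.6% elsewhere. Losartan replicate 1 had the highest mt-Nd5 and mt-Nd6 (5.29%) and the lowest mt-Nd1 (14.6%) and mt-Nd2 (10.8%). Without overlap, mt-Nd4 was higher under Ang II than in Control, and mt-Nd2 was lower with EHP-101 than under Ang II. Control replicate 2 departed most for mt-Co1, mt-Nd5, mt-Nd6 and mt-Nd1, and it is the library with low long and high short nuclear genes. What part that plays was not tested.

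**Figure D3:**
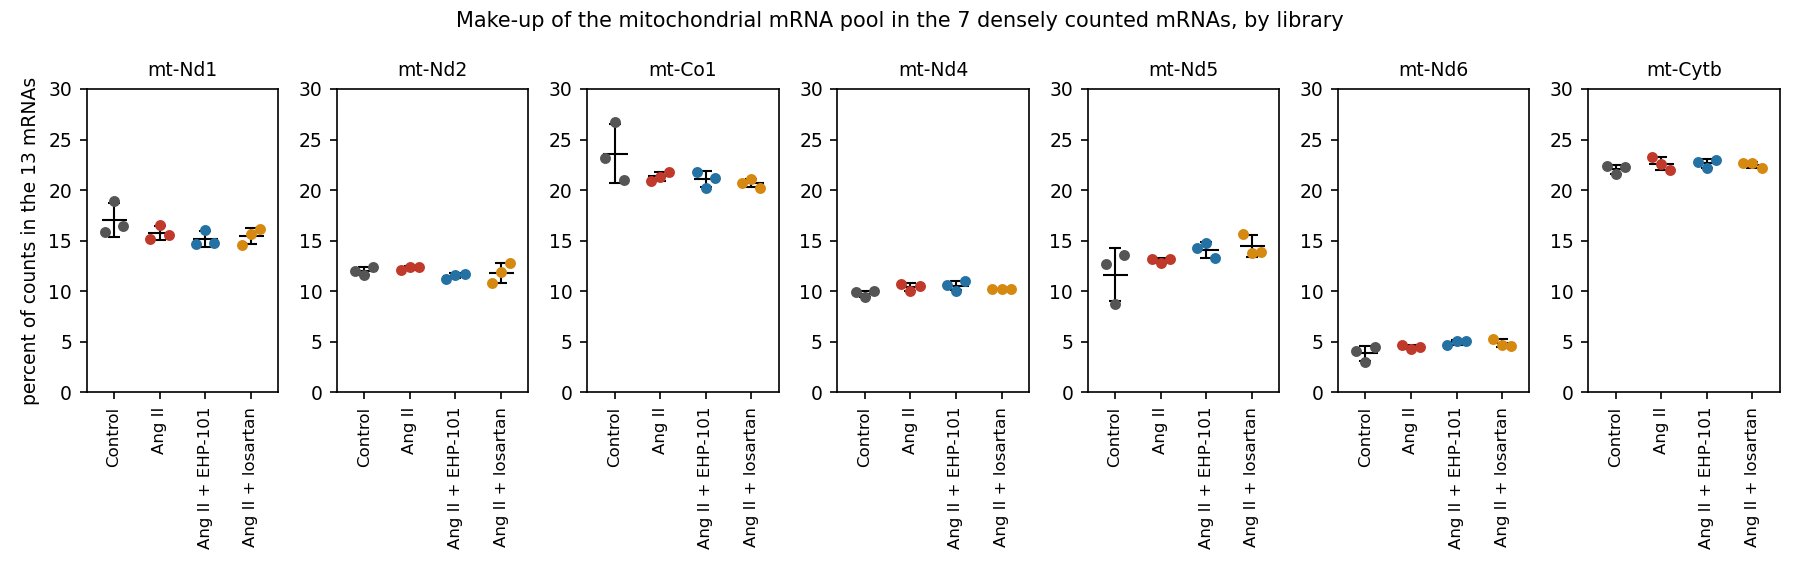
Percent of the counts in the 13 mitochondrial mRNAs taken by each of the 7 densely counted mRNAs, with 1 point per library and the group mean ± SD as bars (n = 3). Control replicate 2 is the high point for mt-Co1 (26.8%) and the low point for mt-Nd5 (8.70%), and mt-Nd5 is higher in the treated groups than under Ang II.

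The ratio of the convergent pair was steady as well. mt-Nd6 had 32.2 to 38.3 counts per 100 of mt-Nd5, or 113 to 135 per 100 once each was divided by its length. The highest ratio was in EHP-101 replicate 3, and the 4 groups overlapped. Since strand was not recorded, counts placed in mt-Nd6 may come from RNA of either strand, so the ratio need not compare separate mRNAs.

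Against Control, every mitochondrial mRNA had a lower mean under Ang II, and none passed the test. Of the 13, 0 were called by edgeR's quasi-likelihood test at an adjusted p of 0.05, where 0.541% of all 15336 genes were called. At an unadjusted p of 0.05, 1 of 13 passed against 17.6% of all genes, and DESeq2 and limma-voom called 0 of 13, where they called 3.48 and 0.333% of all genes. All 13 log2 fold changes were negative, as were 50.1% of all genes, with a median of -0.33 beside -0.00070 for all genes. They ran from -0.54 for mt-Co1 to -0.08 for mt-Atp8, with adjusted p between 0.259 and 0.903.

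mt-Co1 had the largest of these changes. Its level was 42936, 76008 and 41319 CPM in Control and 35437, 40607 and 33831 CPM under Ang II, a log2 fold change of -0.54 ± 0.23 (SE; edgeR adjusted p = 0.259). The groups did not overlap, where 10.3% of all genes were lower without overlap. However, 1 Control library was far above the other 2, and without it the log2 fold change was -0.20. mt-Nd1, the core complex I subunit beside the quinone site, stood at 29333, 53787 and 32387 CPM in Control and 25680, 31521 and 24131 CPM under Ang II (log2 fold change -0.51, adjusted p = 0.284). Here the groups overlapped, Control replicate 2 was again the highest, and without it the log2 fold change was -0.19. mt-Cytb stood at 41528, 61229 and 43855 CPM in Control and 39450, 43021 and 34078 CPM under Ang II (log2 fold change -0.33, adjusted p = 0.387, and -0.14 without that library).

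The remaining densely counted mRNAs all encode complex I subunits, and each overlapped between the groups. Log2 fold changes were -0.33 for mt-Nd2, -0.27 for mt-Nd4, -0.16 for mt-Nd5 and -0.11 for mt-Nd6. Of the 6 thinly counted mRNAs, mt-Co3 had -0.48, mt-Nd3 -0.46, mt-Co2 -0.44, mt-Nd4l -0.33, mt-Atp6 -0.22 and mt-Atp8 -0.08. When Control replicate 2 was left out, the median of the 13 was -0.12, with 11 negative and 2 positive. With library size alone as the scaling, the median of all genes shifted to 0.17 and that of the 13 to -0.14, and mt-Nd5 (0.01), mt-Nd6 (0.07) and mt-Atp8 (0.11) turned positive.

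With EHP-101 the mitochondrial mRNAs were on average higher than under Ang II alone, again with 0 of 13 called by edgeR, where 0% of all genes were called. DESeq2, which called 0.365% of all genes, and limma-voom, which called 0%, also called 0 of 13. At an unadjusted p of 0.05, 2 of 13 passed against 7.22% of all genes. Log2 fold changes were positive for 12 of 13, as for 50% of all genes, with a median of 0.29 beside 0.00030 for all genes, and mt-Atp8 had -0.16. Without EHP-101 replicate 2 the median of the 13 was 0.15. mt-Nd6 had the largest, at 0.46 ± 0.20 (SE, edgeR adjusted p = 0.633). Its levels were 7902, 8184 and 6979 CPM under Ang II and 8376, 12130 and 11145 CPM with EHP-101. mt-Nd5 followed with 0.43 ± 0.19 (adjusted p = 0.658), from 22353, 24277 and 20454 CPM to 25681, 35432 and 29108 CPM. In both genes the groups did not overlap, and EHP-101 replicate 1 lay nearest to Ang II. Counts in mt-Nd6 may include RNA of the opposite strand, so mt-Nd5 and mt-Nd6 need not be separate results. mt-Nd4 (0.33) and the thinly counted mt-Nd3 (0.44) did not overlap either, which made 4 of 13 higher where 7.01% of all genes were.

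With losartan all 13 had a higher mean than under Ang II, and 0 of 13 were called by edgeR, where 0% of all genes were called. DESeq2 called 0 of 13 and 0.661% of all genes, and limma-voom 0 of 13 and 0%. At an unadjusted p of 0.05, 2 of 13 passed against 8.41% of all genes. Fold changes were positive for 50.6% of all genes. The median log2 fold change of the 13 was 0.32 beside 0.003 for all genes, with adjusted p from 0.446 to 0.998, and without losartan replicate 1 it was 0.20. mt-Nd5 stood at 40720, 27386 and 27859 CPM, a log2 fold change of 0.52 ± 0.19 (SE, edgeR adjusted p = 0.446). mt-Nd6 stood at 13734, 9302 and 9076 CPM, a log2 fold change of 0.48 ± 0.19 (adjusted p = 0.509). Every losartan library was above every Ang II library for both, and losartan replicate 1 was the highest of all 12 libraries. The limit that strand sets on mt-Nd6 holds here too. mt-Cytb (0.35) and mt-Nd4 (0.33) did not overlap with Ang II either, so that 4 of 13 were higher where 9.22% of all genes were. mt-Atp8 had 0.01, and with library size alone -0.11. An edgeR test of any difference among the 4 groups called 0 of 13, against 0.189% of all genes, and 0 of 13 passed an unadjusted p of 0.05 against 13.1% of all genes. DESeq2 called 0 of 13 there and 3.57% of all genes, and limma-voom 0 of 13 and 0.156%.

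**Figure D4:**
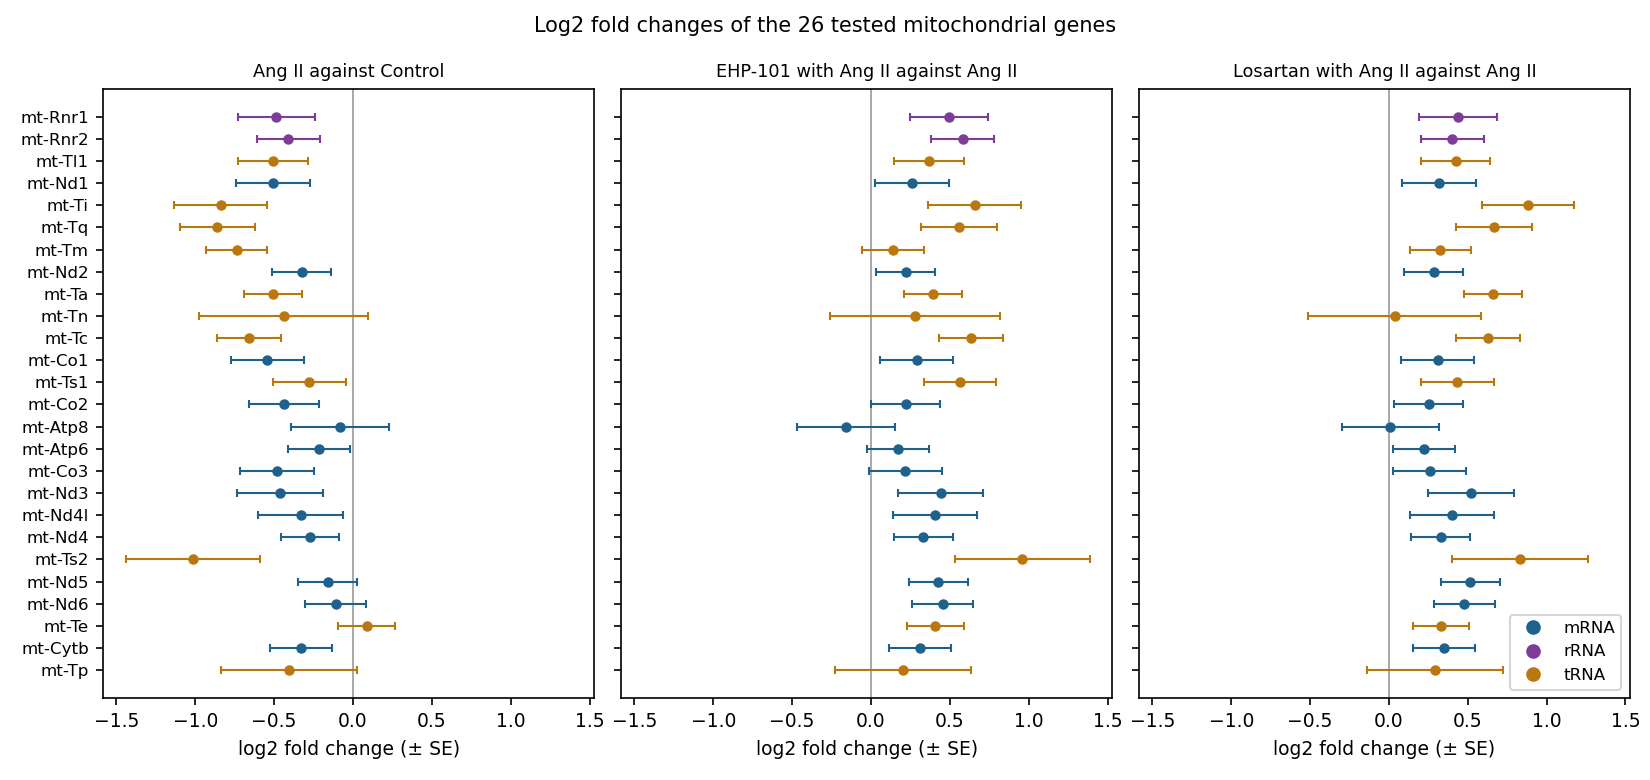
Log2 fold changes with their standard errors for the 26 tested mitochondrial genes in genome order, coloured by class, in the 3 comparisons. Of 26 genes, 25 are negative in Ang II against Control, 25 positive with EHP-101 and 26 positive with losartan, and none passed an adjusted p of 0.05; both treatments share the Ang II libraries.

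The rRNAs, mt-Rnr1 of the small and mt-Rnr2 of the large mitochondrial ribosomal subunit, made up 2.45 to 4.24% of mitochondrial counts. These libraries were selected for poly(A), so this share says how much rRNA was captured and not how much the tissue held. mt-Rnr2 stood at 3823, 6439 and 3798 CPM in Control, 3529, 3798 and 3253 CPM under Ang II, 5670, 5422 and 4730 CPM with EHP-101 and 4493, 4310 and 5169 CPM with losartan. Ang II was below both treated groups without overlap, and Control replicate 2 was the highest library. The log2 fold change of mt-Rnr2 was -0.41 under Ang II against Control, 0.58 ± 0.20 with EHP-101 and 0.40 with losartan (edgeR adjusted p = 0.304, 0.5 and 0.626). mt-Rnr1 had -0.49, 0.49 and 0.44 in the same comparisons (adjusted p = 0.32, 0.759 and 0.682), and it too was higher without overlap in both treated groups. Of all genes, 7.01% were higher without overlap with EHP-101 and 9.22% with losartan. Against the other 2 Control libraries alone, the log2 fold changes were -0.11 for mt-Rnr2 and -0.06 for mt-Rnr1.

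Transfer RNAs were the class in which Ang II libraries stood furthest from the rest. The 22 tRNAs together took 0.0303, 0.0376 and 0.0286% of all counts in Control and 0.0240, 0.0251 and 0.0254% under Ang II. They took 0.0313, 0.0338 and 0.0327% with EHP-101 and 0.0338, 0.0324 and 0.0353% with losartan. The 3 Ang II libraries were thus below all 9 others, also when Control replicate 2 is left aside. This was seen in the values and was given no test. Mature tRNAs are short and have no long poly(A) tail, so these reads need not come from mature tRNA.

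Of the 22 tRNAs, 5 (mt-Tw, mt-Td, mt-Tk, mt-Tg and mt-Th) had 0 counts in all libraries, which allows up to 3 counts in a library, or 0.125 to 0.135 in 1000000. Another 6 had at most 14 counts in a library. The 11 that were tested are mt-Tl1, mt-Ti, mt-Tq, mt-Tm, mt-Ta, mt-Tn, mt-Tc, mt-Ts1, mt-Ts2, mt-Te and mt-Tp. The 8 tRNAs of the minus strand held 87.7% of tRNA counts and 7 of them were tested, while of the 14 on the plus strand 4 were tested and 5 had no read. Since strand was not recorded, a read placed in a minus-strand tRNA may come from RNA of either strand. mt-Tc, the tRNA for cysteine, alone held 59.2% of tRNA counts. It is shown whole because the tRNA values rest largely on it, at chrM:5192-5257 on the minus strand.
mt-Tc: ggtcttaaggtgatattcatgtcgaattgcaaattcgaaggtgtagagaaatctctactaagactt

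mt-Tc stood at 173, 284 and 163 CPM in Control, 116, 144 and 132 CPM under Ang II, 193, 239 and 175 CPM with EHP-101 and 215, 183 and 209 CPM with losartan. All 3 Ang II libraries were below the 9 others. The log2 fold change was -0.66 ± 0.20 (SE) under Ang II, 0.63 with EHP-101 and 0.63 with losartan (edgeR adjusted p = 0.165, 0.458 and 0.381). mt-Tq, for glutamine, stood at 33.2, 49.6 and 29.1 CPM in Control and 18.5, 21.6 and 21.4 CPM under Ang II (log2 fold change -0.86, adjusted p = 0.139). With EHP-101 it was 31.0, 20.9 and 38.6 CPM, which overlapped with Ang II, and with losartan 25.1, 34.9 and 37.5 CPM, which did not.

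mt-Tm, for methionine, stood at 15.1, 24.3 and 18.2 CPM in Control and 9.57, 13.5 and 11.4 CPM under Ang II (log2 fold change -0.74, adjusted p = 0.121). It overlapped with Ang II in both treated groups. mt-Te, for glutamate and the second most counted tRNA, differed from this pattern, with 36.3, 33.0 and 36.1 CPM in Control and 40.9, 34.8 and 36.2 CPM under Ang II (log2 fold change 0.09).

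Of the 11 tested tRNAs, 10 were lower under Ang II than in Control, with a median log2 fold change of -0.51, and 7 did not overlap where 10.3% of all genes were lower without overlap. All 11 had a higher mean with EHP-101, as 50% of all genes did, with a median of 0.41, and 2 did not overlap where 7.01% of all genes did not. All 11 also had a higher mean with losartan, as 50.6% of all genes did, with a median of 0.43, and 7 did not overlap where 9.22% of all genes did not. edgeR called 0 of 11 in each comparison, where it called 0.541, 0 and 0% of all genes. At an unadjusted p of 0.05, 7, 6 and 4 of the 11 passed, beside 17.6, 7.22 and 8.41% of all genes, and 6 of 11 passed the test of any difference among the 4 groups, beside 13.1%. limma-voom called 0 of 26 mitochondrial genes in each comparison. DESeq2 called mt-Tm (log2 fold change -0.75, adjusted p = 0.0242), mt-Tq (-0.87, adjusted p = 0.0301) and mt-Tc (-0.67, adjusted p = 0.0485) lower under Ang II, where it called 3.48% of all genes. It called 0 with either treatment, and edgeR without a filter on low counts called mt-Tm alone (-0.75, adjusted p = 0.0408), where 0.582% of all genes were called. With Control replicate 2 left out, edgeR gave -0.54 for mt-Tm, -0.60 for mt-Tq and -0.36 for mt-Tc, with adjusted p from 0.233 to 0.315.

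Nuclear genes that work with the mitochondrial ones had lower means under Ang II, and edgeR called none of them. Of the nuclear subunits of complex I, 36 of 36 had a negative log2 fold change against Control, with a median of -0.61. The medians were -0.59 for 9 subunits of complex III, -0.60 for 13 of complex IV, -0.60 for 17 of complex V and -0.56 for the 4 of complex II, which has no mitochondrially encoded subunit. All 79 values were negative, 0 were called by edgeR, and 0.541% of all genes were called. DESeq2 called 2 subunits of complex I, 1 of complex II, 1 of complex III and 2 of complex V lower, and 0 of complex IV, where it called 3.48% of all genes. Atp5a1, the alpha subunit of ATP synthase, had a log2 fold change of -0.55 (edgeR adjusted p = 0.155) and Cox7a1, the muscle form of a complex IV subunit, had -0.80 (adjusted p = 0.185). Leaving out Control replicate 2, the medians were -0.18 for complexes I and III, -0.15 for complex IV, -0.22 for complex V and -0.31 for complex II. These are nearer to 0 in all 5 complexes, as was the median of the mitochondrial mRNAs.

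With EHP-101 the medians for complexes I, II, III, IV and V were 0.19, 0.13, 0.15, 0.18 and 0.18, and with losartan they were 0.14, 0.22, 0.12, 0.10 and 0.14, with 0 called by edgeR or DESeq2. The medians of the mitochondrial mRNAs in the same comparisons were 0.29 and 0.32, or 0.15 without EHP-101 replicate 2 and 0.20 without losartan replicate 1. With library size alone as the scaling, the medians of the complexes were 0.04, -0.01, 0.0016, 0.04 and 0.03 with EHP-101. With losartan they were 0.02, 0.10, -0.0009, -0.02 and 0.02. Those of the mitochondrial mRNAs were then 0.14 and 0.20, and those of all genes -0.15 and -0.12. The difference between the mitochondrial and the nuclear medians was not tested.

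The machinery that makes mitochondrial RNA and protein was described in the same way. Among 18 genes of mitochondrial DNA transcription and replication, 16 were lower under Ang II than in Control, with a median of -0.28, and Tfb1m, an rRNA methyltransferase, had -0.54. All 20 genes of mitochondrial RNA processing and stability were lower, with a median of -0.26, and Supv3l1, the helicase of the RNA-degrading complex, had -0.52 (adjusted p = 0.147). All 77 tested proteins of the mitochondrial ribosome were lower, with a median of -0.47, and Mrpl39 had -0.53 (adjusted p = 0.123). Of 12 nuclear regulators of mitochondrial biogenesis, 10 were lower, with a median of -0.09, and Esrra, a nuclear receptor that drives OXPHOS genes, had -0.51 (adjusted p = 0.192). edgeR called 0 genes in these 4 lists, and DESeq2 called 1 gene of RNA processing and 3 of the mitochondrial ribosome lower under Ang II. Against Control, edgeR called 0.541% and DESeq2 3.48% of all genes. With Control replicate 2 left out, their medians were -0.10, -0.18, -0.15 and -0.24 in the same order. The medians with EHP-101 were 0.04, 0.10, 0.09 and 0.06, and those with losartan 0.16, 0.14, 0.11 and 0.11. With library size alone as the scaling, the medians in the same order were -0.09, -0.08, -0.27 and 0.06 against Control. They were then -0.11, -0.05, -0.06 and -0.09 with EHP-101, and 0.04, 0.02, -0.01 and -0.005 with losartan.

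Across the 12 libraries, the mitochondrial share of counts and the mean log2 level of 75 nuclear subunits of complexes I, III, IV and V were compared, the nuclear level being log2 of counts per 1000000 nuclear counts with a pseudocount of 1. Pearson's r was 0.636 (permutation p = 0.0172, adjusted over 2 relations p = 0.0345) and Spearman's rho 0.650 (permutation p = 0.0254, adjusted p = 0.0508). Leaving out Control replicate 2 and losartan replicate 1, the 2 libraries farthest from the median share, r was 0.485, given without a test. In a check chosen after seeing the data, without Control replicate 2 alone, r was 0.611 (n = 11, permutation p = 0.0436). For the 12 cardiomyocyte markers the relation did not pass, with r = 0.356 (permutation p = 0.251) and rho = 0.280 (permutation p = 0.379), each adjusted to the same value, and r was 0.571 without the same 2 libraries. Both measures of a pair come from the same library and share its depth and RNA. Libraries were permuted without regard to group, so differences between the groups enter these p-values. The labels give no batch within which to repeat this.

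**Figure D5:**
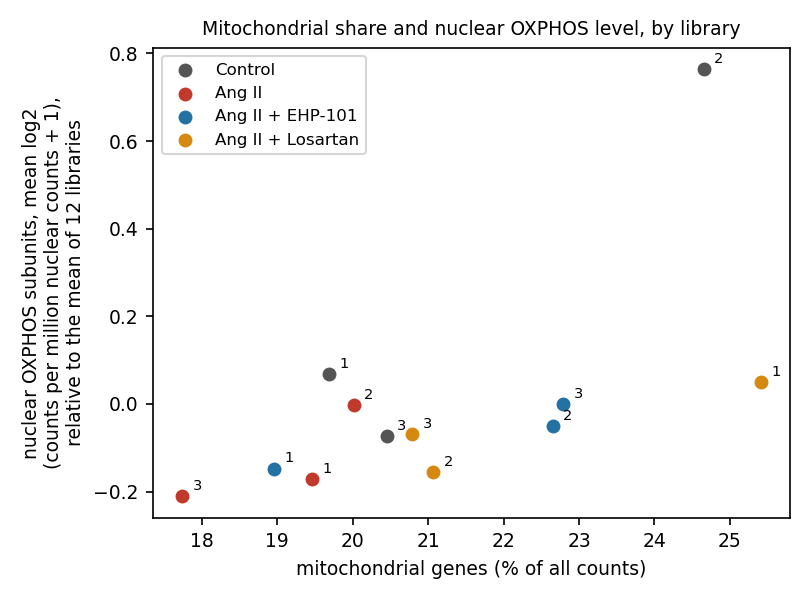
Mitochondrial share of counts on the x axis against the mean log2 level (counts per 1000000 nuclear counts, plus 1) of 75 nuclear OXPHOS subunits, relative to the mean of 12 libraries, on the y axis, with 1 point per library numbered by replicate. Control replicate 2 lies far above the other libraries on the y axis, and the r of 0.636 over all 12 was 0.611 without it.

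Cell type markers are given beside these results, and edgeR called only 2 of them, both fibroblast markers. The 12 cardiomyocyte markers summed to 72600 to 81900 CPM in Control, 61900 to 75000 under Ang II, 72200 to 87500 with EHP-101 and 71000 to 81100 with losartan. Their median log2 fold changes were -0.21, 0.27 and 0.22 in the 3 comparisons, with 0 called by edgeR. DESeq2 called 1 of the 12 lower under Ang II and 1 higher with EHP-101. Of all genes, DESeq2 called 3.48, 0.365 and 0.661% in the 3 comparisons. The 9 fibroblast markers summed to 2510 to 4440, 4950 to 6720, 4360 to 4870 and 3460 to 4390 CPM in the 4 groups, with medians of 0.68, -0.44 and -0.58. Ang II was above all other groups without overlap, and edgeR called 2 of the 9, the collagen genes Col3a1 and Col1a2, higher against Control (adjusted p = 0.0235 and 0.0381), where 0.541% of all genes were called, and 0 of the 9 without Control replicate 2. DESeq2 called 4 of the 9 higher under Ang II and 2 lower with losartan, beside 3.48 and 0.661% of all genes. The 10 atrial markers summed to 343 to 2000, 1670 to 2980, 582 to 1230 and 115 to 2220 CPM, with medians of 0.46, -1.29 and -1.02. DESeq2 called 1 of these 10 lower with losartan, beside 0.661% of all genes. Without Control replicate 2, the medians of Ang II against Control were -0.24 for cardiomyocyte, 0.42 for fibroblast and 0.03 for atrial markers.

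For the other lists the same 3 medians were 0.17, -0.13 and -0.05 for 8 endothelial markers, 1.03, -0.53 and -0.49 for 5 smooth muscle markers and 0.25, -0.77 and -0.49 for 7 leukocyte markers. They were 0.42, -0.29 and -0.61 for 5 erythroid markers, 1.67, -1.06 and -0.62 for 5 adipocyte markers and 0.39, 0.38 and 0.30 for 3 RNAs that are kept in the nucleus or lack a poly(A) tail. Without Control replicate 2, the medians of Ang II against Control in these lists were 0.05, 0.73, 0.26, 0.91, 1.22 and 0.22 in the same order. edgeR called 0 genes in these 6 lists. DESeq2 called 2 smooth muscle markers and 1 leukocyte marker higher under Ang II, where it called 3.48% of all genes. It called 1 leukocyte marker lower with EHP-101, where it called 0.365% of all genes. Of all markers only Rn7s1 and Rn7s2, which lack a poly(A) tail, were at 0 in every library. The part of these cell types in the mitochondrial values was not tested.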

How the data were processed

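Raw read counts per gene were used as deposited by the authors for 12 mouse heart libraries. Per the submitters' processing notes, the tools were fastp 0.20.0, HISAT2 2.1.0, featureCounts 2.0.0 and edgeR 3.30.0, with GRCm38. Positions and sequences were taken from GENCODE M21 of the same build. Groups came from the sample titles.

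Counts of all genes were fitted in 1 model in R 4.3.3 with edgeR 4.0.16 (filterByExpr, TMM, robust quasi-likelihood, two-sided F tests). P-values were adjusted by Benjamini-Hochberg over 15336 genes with a threshold of 0.05. The SE of a log2 fold change is its size divided by the square root of F, so it restates that test. The share of counts was compared by exact permutation tests. Nuclear copies were found with BLAST+ 2.17.0 at an identity of at least 90% over at least 100 bases.

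Alternatives were RLE factors, library size alone, scaling without the mitochondrial rows, DESeq2 1.42.0, limma-voom (limma 3.58.1), fits of just the 2 groups at issue, a block for the replicate number, no filter or one at a mean CPM of 5, and leaving out each library in turn. The fit was tested on simulated data for Ang II against Control, where it called 57 of 100 changes of 2-fold and 87 of 99 of 4-fold. It made 5 false calls. Changes as small as those of the mitochondrial mRNAs were not simulated. The naming rule took all mRNAs, rRNAs and tested tRNAs, the 6 most counted nuclear copies, and at most 4 genes of each other list, those with the smallest p in Ang II against Control. The genes and lists were chosen with earlier results of these data known. Replicates of every group differed by more than counting noise. Of the lists, Atp5pb and Prorp had no row under that name and were not used here.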

Additional observations from a re-analysis of the deposited data

Results flagged for a closer look

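A single nuclear copy stood out from the control libraries. Gm29216, the pseudogene on chromosome 1 that matches mt-Co1 with 1 difference, had 10255 counts in losartan replicate 3, over 3 times the highest control count. It had 635 to 1189 counts in the other 11 libraries. Its neighbour Gm28437, which matches mt-Co3 without a difference, had 8261 counts in Control replicate 3, 7231 in Ang II replicate 1, 6072 in EHP-101 replicate 2 and 2319 in losartan replicate 3, and 924 to 1418 in the 8 others. The libraries that are high for the 2 copies fall in all 4 groups. The 16 nuclear copies with at least 10 counts together came to 0.248 to 0.470% of the mitochondrial counts, and with them added the share differed by -2.54, 2.39 and 3.36 points in the 3 comparisons, each within the spread between replicates of the value without them. No group of 3 libraries was searched for outlying values.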

How the results depend on the processing

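The number of mitochondrial mRNAs called was 0 in every comparison under every alternative run, each library left out included (0 to 0). This count says little, since the main edgeR fit called 0.541% of all genes against Control and 0% with either treatment. With a library left out, the share of counts differed by -3.48 to -0.997 points for Ang II against Control, 1.72 to 3.65 for EHP-101 and 1.86 to 4.17 for losartan against Ang II, 2.53 to 4.17 between the extreme groups, and -1.57 to 0.916 for all infused against Control, which alone reversed, without Control replicate 2. Signs also turned for genes that were never called in those fits. With library size alone these were mt-Atp8 (0.1117), mt-Nd5 (0.01) and mt-Nd6 (0.0664) against Control, and mt-Tn (-0.0745) and mt-Atp8 (-0.1054) with losartan. With a library left out, log2 fold changes against Control ran from -0.8561 to 0.1673 for mt-Tn, -0.3786 to 0.2892 for mt-Atp8, -0.4102 to 0.0155 for mt-Atp6 and -0.6754 to 0.1402 for mt-Tp. With EHP-101 they ran from -0.0791 to 0.6937 for mt-Tn, -0.3516 to 0.1356 for mt-Atp8 and -0.3228 to 0.4691 for mt-Tp, and with losartan from -0.3226 to 0.4489 for mt-Tn and -0.1737 to 0.3018 for mt-Atp8. The cause was not tested, but mt-Tn and mt-Atp8 had at most 16 and 119 counts.

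Replicate numbers did not pair the libraries: of 18 same-numbered pairs, 4 correlated above 0.1 (-0.327 to 0.33). With the replicate number as a block, 0 mitochondrial mRNAs were called, and calls over all genes against Control went from 83 to 57. The exact sign-flip p of the share was 0.25, 0.5 and 0.25. The smallest p this sign-flip test can give here is 0.25, so it could not pass and decides nothing. With library size alone, the median of all genes shifted by 0.17 against Control, -0.15 with EHP-101 and -0.12 with losartan. Depth limits chiefly the genes with few counts, such as mt-Tn and mt-Atp8. The SE against Control of mt-Tc (0.20) and mt-Co2 (0.22) was close to that of mt-Co1 (0.23).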

Other observations

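The most counted nuclear copy was not on chromosome 1. Gm13341 on chromosome 2, which matches mt-Co2 at 95.9% identity over 684 bases, had 3911 to 8858 counts, with the highest in Control replicate 2. This was more than mt-Co2 itself, which had 1193 to 1877 counts. Every window of mt-Co2 is also found in an annotated nuclear transcript, and how such reads were counted is not given. The counts therefore do not rank the levels of the pseudogene and of mt-Co2. Gm13340, next to it and 97.6% identical to mt-Co1 over 1545 bases, had 2257 to 3138 counts. The Gm10925 copy of mt-Atp6, without a difference over 678 bases, had 925 to 1172 counts beside 987 to 1440 for mt-Atp6. Gm28439, a copy of part of mt-Nd4, had 565 to 746 counts. None of these values was tested between groups.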
